A study of Mus musculus with 24 samples.

Results

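Chemokine receptors are surface proteins that steer T cells towards follicles, T cell zones or inflamed tissue. The RNA of 9 of them (Cxcr5, Cxcr3, Cxcr4, Cxcr6, Ccr7, Ccr6, Ccr4, Ccr8 and Ccr2) is described here in 4 sorted CD4 T cell subsets of mice. They were chosen by name, as receptors known for follicular or tissue positioning, but with earlier results of these data known. They are 9 of the 39056 genes in the count table. All 9 were among the 18789 genes with enough reads to be tested. Total RNA was sequenced from female NZBWF1/j mice, hybrids that develop a lupus-like disease, with 3 libraries in each of 8 groups. Treated mice had been given OX40L, which engages the T cell costimulator OX40, and JAG1, which engages Notch. Both proteins were injected intraperitoneally, 2 mg/kg of each once a week for 3 weeks from the age of 23 weeks, and control mice were given PBS. All mice were killed at week 26. The sort took conventional T cells (Tconv) as CD4+CXCR5-GITR- and regulatory T cells (Treg) as CD4+CXCR5-GITR+. Follicular helper cells (TFH) were CD4+CXCR5+PD1Hi with no or low GITR, and follicular regulatory cells (TFR) were CD4+CXCR5+PD1Hi with high GITR. CXCR5 protein thus set the gates, and Cxcr5 RNA between CXCR5+ and CXCR5- subsets only checks the sort. The tissue the cells came from is not given in the sources used here. Whether the libraries of a group are from different mice is not stated in the labels, and p-values then measure only the spread between these libraries, which may be technical.

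Chemokine receptors couple to inhibitory G proteins, and binding of a chemokine turns on phosphoinositide 3-kinase and Rac, which drive directed movement. CXCR5 follows CXCL13 into B cell follicles, whereas CCR7 follows CCL19 and CCL21 and holds T cells in the T cell zone of lymph nodes and spleen. Follicular T cells characteristically gain CXCR5 and lose CCR7. CXCR3, CXCR6, CCR2, CCR4, CCR6 and CCR8 guide effector and regulatory T cells to inflamed, mucosal or skin sites, and CXCR4 follows CXCL12 in bone marrow and germinal centre dark zones.

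Library totals ran from 31805325 to 53788643 counts in the treated groups, from 24698544 to 33185433 in control Tconv and Treg, from 4848261 to 9622781 in control TFR and from 2537901 to 15234765 in control TFH libraries. Mitochondrially encoded genes took 1.85 to 3.17% of counts in treated and 9.50 to 16.9% in control libraries, without overlap. Every treated library thus differs from every control library in this share, and treatment cannot be told apart from whatever else differed between the 2 sets. Reads of 3 podocyte genes (Nphs1, Podxl and Wt1) summed to 46.8 to 486 CPM (read counts scaled to library size, with TMM factors) in 5 libraries and to at most 1.20 CPM in the other 19. The 5 were treated Treg 3, treated TFH 3, treated TFR 1 and control Tconv 1 and 2, called kidney-transcript libraries here. A further podocyte gene, Synpo, was left out of this sum because it was read in every library. With Synpo the sum was 97.7 CPM (treated Treg 3) to 899.7 CPM (treated TFH 3) in these libraries. Among the others it reached 61.2 CPM, in control TFH 1, so the gap is narrower with that gene. The sum of 5 proximal tubule markers (Slc34a1, Lrp2, Cubn, Kap and Slc5a2) was 54.8 to 491 CPM in the same 5. It was 18.3 CPM in control TFH 3 and did not exceed 4.84 CPM in any other library. Among the labelled types, the 4 Treg markers (Foxp3, Il2ra, Ikzf2 and Ctla4) summed to 2548 to 2634 CPM in treated and 1777 to 1843 CPM in control Treg, and to 163 to 182 CPM in treated and 67.5 to 70.8 CPM in control Tconv libraries. The same sum was 745 to 890.4 CPM in treated and 857 to 953 CPM in control TFH libraries, most of it Ikzf2 (mean 385 CPM treated, 379 CPM control) and Ctla4 (375 CPM treated, 447 CPM control). Foxp3, the lineage factor of Treg cells, was at 43.8 to 59.8 CPM in TFH and 503 to 581 CPM in Treg libraries of treated mice, and at 29.8 to 67.3 CPM in TFH and 439 to 498 CPM in Treg libraries of control mice. Bcl6, the lineage factor of follicular cells, was higher in every TFH than in every Treg library, at 135 to 163 CPM in TFH and 29.3 to 32.4 CPM in Treg libraries of treated mice, and 175 to 233 CPM in TFH and 70.6 to 85.7 CPM in Treg libraries of control mice. Pdcd1, which encodes PD-1, was also higher, with means of 146 CPM in TFH and 72.0 CPM in Treg libraries of treated mice. In control mice the Pdcd1 means were 286 CPM in TFH and 222 CPM in Treg libraries. High PD-1 protein was part of the TFH gate, so this Pdcd1 difference only checks the sort. The costimulator gene Icos was lower, with means of 355 CPM in TFH and 578 CPM in Treg libraries of treated mice, and 575 CPM in TFH and 728 CPM in Treg libraries of control mice. The sum of 5 TFH markers (these 3, Il21 and Sh2d1a), with Icos its largest part, thus overlapped, at 709 to 884 CPM in TFH and 751 to 774 CPM in Treg libraries of treated mice, and 1081 to 1253 CPM in TFH and 1107 to 1124 CPM in Treg libraries of control mice.

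The 9 genes lie on 5 chromosomes of mm10 (GRCm38). Ccr4 (ENSMUSG00000047898.7, chr9:114490316-114504916, minus strand), Ccr8 (ENSMUSG00000042262.5, chr9:120092114-120094906, plus), Cxcr6 (ENSMUSG00000048521.8, chr9:123806475-123811760, plus) and Ccr2 (ENSMUSG00000049103.14, chr9:124101950-124113557, plus) share the distal part of chromosome 9. Cxcr5 (ENSMUSG00000047880.15, chr9:44511787-44561877, minus) is on the same chromosome, and 110 of its exon bases overlap Bcl9l on the other strand, so its counts are uncertain where strand was not used. Cxcr4 (ENSMUSG00000045382.6) is at chr1:128588199-128592293, minus. Ccr7 (ENSMUSG00000037944.8) is at chr11:99144196-99155077, minus. Ccr6 (ENSMUSG00000040899.13) is at chr17:8236043-8257141, plus. Cxcr3 (ENSMUSG00000050232.6) is at chrX:101731535-101734269, minus. Reads of Ccr2 could be shared with receptor genes of like sequence, and its counts are uncertain to that extent.

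The bases upstream of the start site are shown for Ccr4, Ccr2 and Cxcr3, which along with Cxcr5 had the largest treated-over-control folds among the receptors in Tconv cells. Each is 250 bases, 5′ to 3′ on the gene's strand, from the RefSeq promoters of GRCm38.p6, at chr9:114496545-114496794 (minus), chr9:124101933-124102182 (plus) and chrX:101734148-101734397 (minus). The start sites are those of RefSeq and differ from the ends of the gene spans given above. The Ccr4 window lies wholly inside its span, away from the 5′ end at 114504916, and the Ccr2 and Cxcr3 windows overlap their spans in part. Capitals mark a match to a searched motif.
Ccr4: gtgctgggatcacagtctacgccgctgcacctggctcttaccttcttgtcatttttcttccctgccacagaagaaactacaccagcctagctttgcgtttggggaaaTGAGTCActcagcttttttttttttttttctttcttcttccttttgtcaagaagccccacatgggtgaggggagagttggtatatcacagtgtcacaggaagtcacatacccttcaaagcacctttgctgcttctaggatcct
Ccr2: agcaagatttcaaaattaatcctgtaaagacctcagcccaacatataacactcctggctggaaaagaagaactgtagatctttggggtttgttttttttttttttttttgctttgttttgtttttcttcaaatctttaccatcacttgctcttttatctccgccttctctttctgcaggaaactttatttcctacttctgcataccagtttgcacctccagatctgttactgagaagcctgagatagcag
Cxcr3: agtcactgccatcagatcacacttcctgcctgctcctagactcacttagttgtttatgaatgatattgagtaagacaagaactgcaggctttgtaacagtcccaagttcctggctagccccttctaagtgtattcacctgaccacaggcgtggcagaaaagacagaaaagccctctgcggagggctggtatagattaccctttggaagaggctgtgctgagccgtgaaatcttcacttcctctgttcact
Searches for 3 motifs covered both strands of the window from 250 bases before to 50 bases after the start. The letters were TGANTCA for AP-1, TGGGAA for RBPJ (the DNA-binding partner of Notch) and TTCNNNGAA for STAT factors. TGANTCA was in 7.81%, TGGGAA in 25.6% and TTCNNNGAA in 8.30% of 32851 promoters of the same length. The table held 8 promoters for 7 of the receptors, Ccr6 having 2, and none for Cxcr5 and Ccr7. The AP-1 letters matched in 1 of the 8 (Ccr4, first base 143 before the start), the RBPJ letters in 2 (Cxcr3, from base 6 after the start, and 1 Ccr6 promoter) and the STAT letters in 1 (the other Ccr6 promoter). No match overlapped another. The Ccr2, Ccr8, Cxcr4 and Cxcr6 windows held no match to any of the 3. A match is a run of letters and does not show binding.

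Compared per length of transcript, Ccr7 and Cxcr4 had the highest mean levels of the 9 in every group except treated TFH, where Cxcr5 and Cxcr3 came between them. Ccr7 led in both Tconv groups and in control Treg, and Cxcr4 led in the other 5 groups. Ccr7 averaged 547 ± 20.7 CPM per kb in treated and 616 ± 97.5 CPM per kb in control Tconv libraries (SD, n = 3 each). Cxcr4 averaged 167 ± 1.86 CPM per kb in treated and 123 ± 21.7 CPM per kb in control Tconv libraries. The follicular receptor Cxcr5 was at 78.4 ± 6.27 CPM per kb in treated and 36.2 ± 6.61 CPM per kb in control TFH libraries, its highest group for each kind of mouse. At the low end, Ccr6, the receptor for CCL20, was at 0.248 ± 0.0776 CPM per kb in treated and 0.124 ± 0.102 CPM per kb in control Tconv libraries. Ccr8, which binds CCL1, had 0.880 ± 0.139 CPM per kb in treated and 1.33 ± 0.677 CPM per kb in control Tconv libraries. The receptors for inflamed and skin sites were thus all below Ccr7 and Cxcr4 in Tconv cells, the subset with the fewest of their transcripts.

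**Figure D1:**
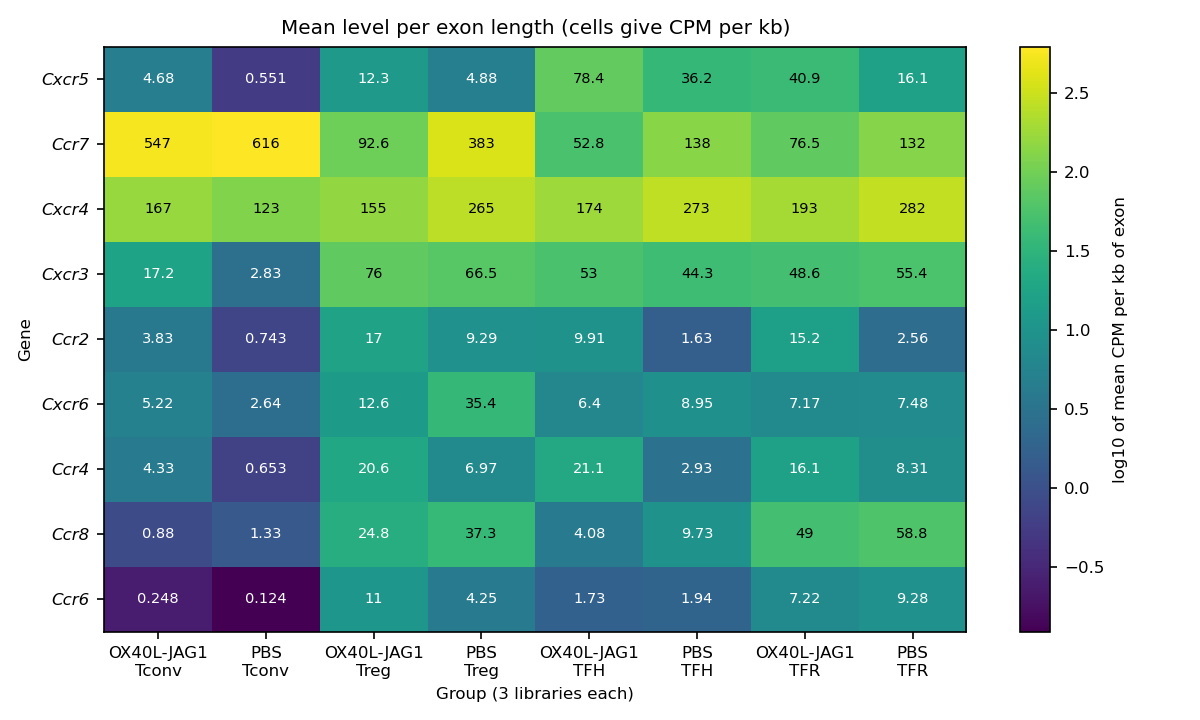
Mean level of the 9 receptors in CPM per kb of exon (colour on a log scale, value in each cell), with the 8 groups as columns, treated left of control for each subset. Ccr7 is highest in Tconv (547 treated, 616 control) and Cxcr5 in TFH (78.4 treated, 36.2 control).

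The first question was how the receptors differed between mice given OX40L and JAG1 and mice given PBS within each subset. Cxcr5 rose in all 4 subsets, and Cxcr4 and Ccr7 fell in Treg, TFH and TFR. Ccr2, the receptor for CCL2, rose in Tconv, TFH and TFR, and Ccr4, the receptor for CCL17 and CCL22, rose in Tconv and TFH. Cxcr3, which binds CXCL9 and CXCL10, rose in Tconv. Differences were tested with edgeR's quasi-likelihood F test on all 24 libraries, with Benjamini-Hochberg adjustment over all 18789 genes and a threshold of 0.05. In Tconv cells 5 of the 9 receptors rose and 0 fell, where 6.89% of all genes tested rose and 3.05% fell. At an unadjusted p under 0.05, 0 fell, and 1 by DESeq2. Without the kidney-transcript libraries 2 were called in Tconv. In Treg cells 1 rose and 3 fell, against 5.17% and 3.56% of all genes, and the calls in Treg numbered 9 by limma-voom and 8 in the fit to the Treg libraries alone. In TFH cells 3 rose and 3 fell, against 16.5% and 5.86%, and the fit to the TFH libraries alone called 3. In TFR cells 2 rose and 2 fell, against 15.6% and 6.39%. The median log2 fold change of the 9 was 0.99 in Tconv, 0.19 in Treg, -0.12 in TFH and -0.19 in TFR, beside 0.02, 0.09, 0.42 and 0.40 over all genes in the same subset order. In sorted bulk samples, fewer cells with a receptor and less of its RNA per cell cannot be told apart.

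**Figure D2:**
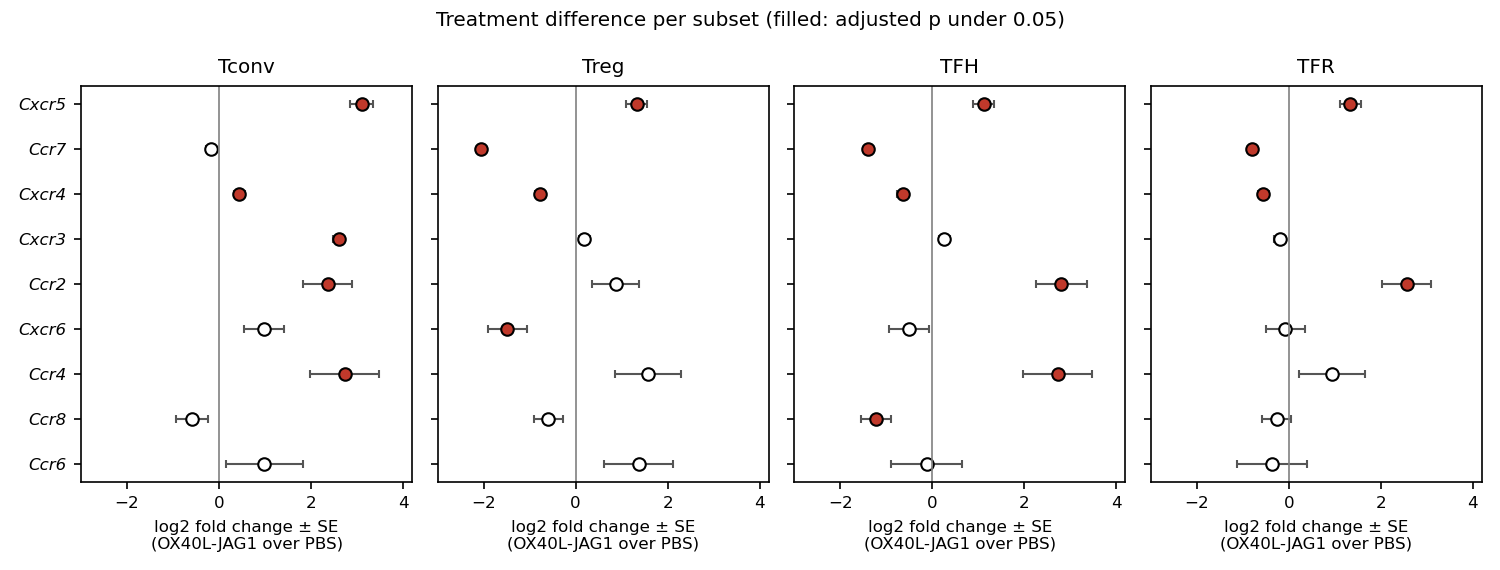
Log2 fold change of treated over control libraries (x axis, error bars 1 SE of the fit) for the 9 receptors in each of the 4 subsets; filled points passed the adjusted p threshold of 0.05. Cxcr5 lies right of 0 in all 4 panels, and Ccr7 lies left of 0 in all 4, with an open point in Tconv.

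Cxcr5, the receptor for the follicle chemokine CXCL13, was read at 14.5, 15.98 and 16.3 CPM in treated Tconv libraries, against 2.50, 2.18 and 0.824 CPM in control Tconv libraries. In the CXCR5-negative Treg gate it was at 40.98, 46.1 and 35.6 CPM in treated Treg libraries, against 14.9, 18.1 and 15.8 CPM in control Treg libraries. TFH cells had 285, 255 and 244 CPM in treated TFH libraries, against 121, 143 and 98.5 CPM in control TFH libraries. Every treated library lay above every control library of its subset. TFR cells gave 126, 136 and 146 CPM in treated TFR libraries, against 49.5, 68.9 and 42.6 CPM in control TFR libraries, again without overlap. The log2 fold change was 3.10 ± 0.25 in Tconv (SE, adjusted p = 2.3e-08), 1.33 ± 0.23 in Treg (adjusted p = 4.6e-04), 1.12 ± 0.23 in TFH (adjusted p = 0.0014) and 1.34 ± 0.23 in TFR (adjusted p = 2.4e-04). In the order of the 8 group means, treated TFR overlapped control TFH, treated Treg overlapped control TFR, and treated Tconv overlapped control Treg libraries. Without the kidney-transcript libraries, which leaves 1 control Tconv library, the Tconv value was 4.24 (adjusted p = 1.7e-07). B cells also carry Cxcr5. The sum of 7 B cell markers (Ms4a1, Cd79a, Cd79b, Cr2, Pax5, Blk and Fcer2a) was 1.57 to 3.07 CPM in treated and 3.71 to 4.53 CPM in control Tconv, and 8.47 to 9.54 CPM in treated and 5.10 to 6.99 CPM in control Treg libraries. It was 18.3 to 24.3 CPM in treated and 44.8 to 82.1 CPM in control TFH, and 14.9 to 15.4 CPM in treated and 4.55 to 6.97 CPM in control TFR libraries. The B cell sum was thus lower in treated Tconv and TFH and higher in treated Treg and TFR, while Cxcr5 was higher in all 4, and its part in the levels was not tested.

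Ccr7, the T cell zone receptor, was read at 193, 189 and 167 CPM in treated Treg libraries, against 788, 758 and 728 CPM in control Treg libraries. TFH cells had 116, 97.02 and 100.3 CPM in treated TFH libraries, against 259.7, 287 and 272 CPM in control TFH libraries. TFR cells had 137, 155 and 162 CPM in treated TFR libraries, against 242, 249 and 295 CPM in control TFR libraries. In these 3 subsets every treated library was below every control library. Tconv libraries stood apart from this, with 1107, 1034 and 1103 CPM in treated Tconv libraries, against 1127, 1088 and 1440.0 CPM in control Tconv libraries, where the groups overlap. The log2 fold change was -2.05 ± 0.10 in Treg (adjusted p = 1.3e-11), -1.38 ± 0.11 in TFH (adjusted p = 5.6e-09) and -0.79 ± 0.11 in TFR (adjusted p = 1.3e-05). It was -0.17 ± 0.10 in Tconv (adjusted p = 0.34), which missed the threshold, while the fit to the Tconv libraries alone gave -0.33 (adjusted p = 0.025). Over 13 alternatives the Tconv value ran from -0.40 to -0.03, and it passed the threshold in 3 of them. Treg cells, between Tconv and the follicular subsets in control mice, had a treated mean of 183 ± 14.1 CPM, which lay below the control TFR mean of 262 ± 29.2 CPM and above the treated TFR mean of 151 ± 12.9 CPM (SD, n = 3 each). The 5 T cell markers (Cd3e, Cd3d, Cd3g, Cd4 and Trac) summed to 1916 to 2117 CPM in treated and 1656 to 1705 CPM in control Treg libraries. Cd3e alone was lower, at 322 to 345 CPM in treated and 397 to 426 CPM in control Treg libraries, and the other 4 were higher in every treated library. Their part in the fall of Ccr7 was not tested.

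**Figure D3:**
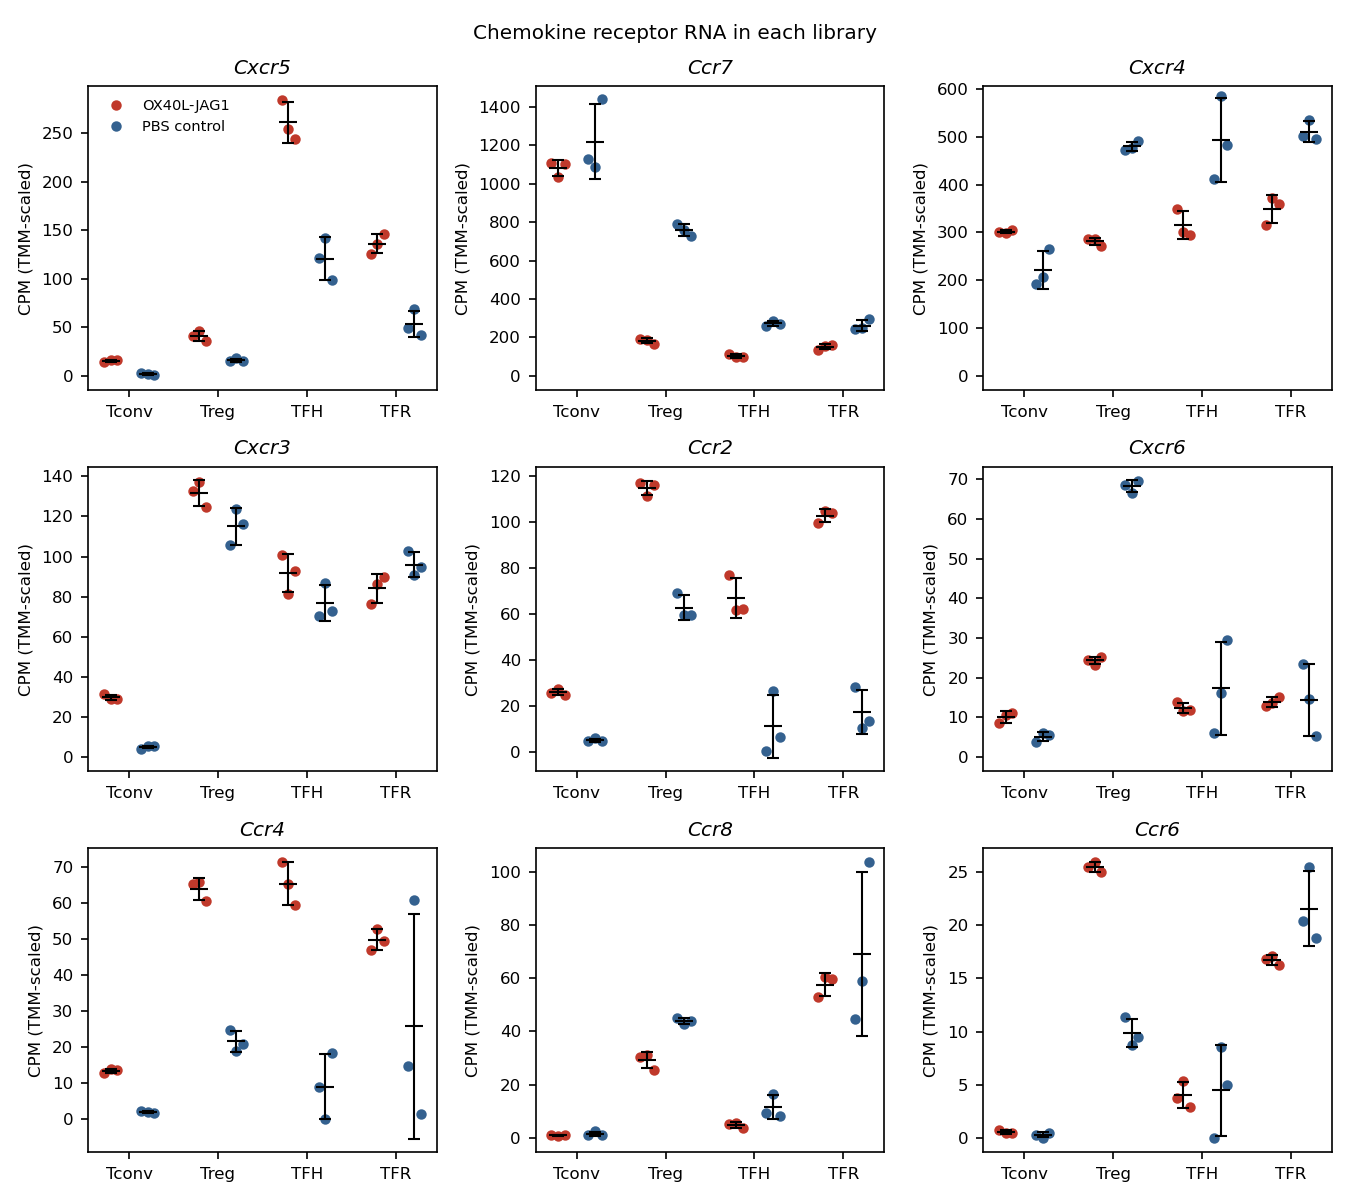
Level of each of the 9 receptors in CPM (y axis, linear, own scale per panel) in every library, with treated libraries left of control ones in each subset; points are libraries and bars the mean ± SD of 3. Ccr7 is at 1034 CPM or more in all 6 Tconv libraries, and Ccr4 and Ccr2 spread widely in control TFH and TFR libraries.

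Cxcr4, the CXCL12 receptor, was read at 285, 285 and 273 CPM in treated Treg libraries, against 472, 476 and 491 CPM in control Treg libraries. TFH cells had 349, 301 and 295 CPM in treated TFH libraries, against 412, 586 and 483 CPM in control TFH libraries. TFR cells had 315, 371 and 359 CPM in treated TFR libraries, against 501, 535 and 495 CPM in control TFR libraries. Treated libraries were all lower than control ones in these 3 subsets, and they were all higher in Tconv, at 299.8, 299 and 305 CPM in treated Tconv libraries, against 191, 208 and 266 CPM in control Tconv libraries. The log2 fold change was -0.77 ± 0.11 in Treg (adjusted p = 8.5e-05), -0.64 ± 0.12 in TFH (adjusted p = 4.0e-04), -0.55 ± 0.11 in TFR (adjusted p = 0.0015) and 0.44 ± 0.11 in Tconv (adjusted p = 0.014). The rise in Tconv was 0.35 (adjusted p = 0.11) without control Tconv 1, 0.40 (adjusted p = 0.083) without control Tconv 2, 0.44 (adjusted p = 0.05) without treated Tconv 3 and 0.19 (adjusted p = 0.998) without all kidney-transcript libraries. Treated levels of the 4 subsets lay close together, and control Tconv had the lowest of the 8 group means at 222 ± 39.3 CPM (SD, n = 3).

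Cxcr3, a receptor of type 1 effector cells for CXCL9, CXCL10 and CXCL11, was read at 31.2, 29.03 and 29.01 CPM in treated Tconv libraries, against 4.13, 5.25 and 5.32 CPM in control Tconv libraries. The treated Tconv libraries were all far above the control ones, with a log2 fold change of 2.60 ± 0.12 (adjusted p = 1.2e-11). Treg cells had 133, 137 and 125 CPM in treated Treg libraries, against 106, 124 and 116 CPM in control Treg libraries. TFH cells had 101, 81.5 and 92.9 CPM in treated TFH libraries, against 70.4, 86.9 and 72.7 CPM in control TFH libraries. TFR cells had 76.1, 86.2 and 89.97 CPM in treated TFR libraries, against 103, 90.6 and 94.6 CPM in control TFR libraries. Treated Treg libraries lay just above and treated TFR libraries just below their controls, and the TFH groups overlapped. None of the 3 passed the test, with 0.19 ± 0.12 in Treg (adjusted p = 0.43), 0.26 ± 0.12 in TFH (adjusted p = 0.12) and -0.19 ± 0.12 in TFR (adjusted p = 0.26). Treated Tconv cells stayed below every library of the other 3 subsets in Cxcr3. The Treg marker sums given above were higher in treated than in control Tconv, as were the T cell marker sums, at 2911 to 3047 CPM in treated and 1268 to 1626 CPM in control Tconv libraries, and their part in the Tconv rises of Cxcr3, Cxcr5, Ccr2 and Ccr4 was not tested.

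Ccr2, the CCL2 receptor of effector and monocytic cells, was read at 25.5, 27.4 and 24.8 CPM in treated Tconv libraries, against 4.65, 5.78 and 4.63 CPM in control Tconv libraries. TFR cells had 99.7, 105 and 104 CPM in treated TFR libraries, against 27.99, 10.5 and 13.5 CPM in control TFR libraries. TFH cells had 77.1, 61.7 and 62.2 CPM in treated TFH libraries, against 0.348, 26.3 and 6.40 CPM in control TFH libraries, and the control TFH values stand on only 2, 68 and 94 reads. Treated libraries were above all controls in each of these subsets. Log2 fold changes were 2.37 ± 0.53 in Tconv (adjusted p = 0.0066), 2.81 ± 0.56 in TFH (adjusted p = 0.0019) and 2.56 ± 0.53 in TFR (adjusted p = 0.0021). The TFH value was 2.19 without control TFH 1 and 4.10 without control TFH 2, and the fit to the TFH libraries alone gave 2.68 (adjusted p = 0.18). Without the kidney-transcript libraries the Tconv value was 2.49 (adjusted p = 0.28). Treg cells had 117, 111 and 116 CPM in treated Treg libraries, against 69.3, 59.6 and 59.5 CPM in control Treg libraries, with no overlap. Their log2 fold change of 0.87 ± 0.52 missed the threshold (adjusted p = 0.41) in the fit to all libraries, and the fit to the Treg libraries alone gave 0.84 (adjusted p = 9.0e-06). The 9 myeloid and dendritic markers (Lyz2, Csf1r, Itgam, Cd14, Adgre1, Fcgr1, Itgax, Flt3 and Siglech), of cells that also carry Ccr2, summed to 3.76 to 6.35 CPM in treated and 0 to 0.477 CPM in control TFH libraries. The same sum was 1.59 to 2.48 CPM in treated and 2.16 to 4.96 CPM in control Tconv, 1.24 to 2.05 CPM in treated and 0.733 to 3.89 CPM in control Treg, and 3.23 to 4.23 CPM in treated and 2.62 to 6.86 CPM in control TFR libraries. These markers moved with Ccr2 in TFH, and their part was not tested.

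Ccr4, a skin and tissue receptor for CCL17 and CCL22, was read at 12.8, 13.8 and 13.6 CPM in treated Tconv libraries, against 2.23, 2.00 and 1.84 CPM in control Tconv libraries. TFH cells had 71.4, 65.4 and 59.3 CPM in treated TFH libraries, against 8.87, 0 and 18.3 CPM in control TFH libraries. The second control TFH library held 0 reads of Ccr4, and 3 reads there would be 1.16 CPM. Treated libraries were above all controls in both subsets. Log2 fold changes were 2.73 ± 0.75 in Tconv (adjusted p = 0.028) and 2.73 ± 0.75 in TFH (adjusted p = 0.015). The Tconv call was lost when any 1 Tconv library was left out (adjusted p from 0.062 to 0.1), with values of 2.67 to 2.81, and without the kidney-transcript libraries (adjusted p = 0.53). The TFH value was 3.70 without control TFH 3, and the fit to the TFH libraries alone gave 2.76 (adjusted p = 0.12). In Treg cells Ccr4 was at 65.3, 65.9 and 60.4 CPM in treated Treg libraries, against 24.7, 18.99 and 20.96 CPM in control Treg libraries, without overlap. That log2 fold change of 1.57 ± 0.72 missed the threshold (adjusted p = 0.25), and in the fit to the Treg libraries alone it was 1.53 (adjusted p = 1.3e-06). TFR cells had 46.9, 52.8 and 49.5 CPM in treated TFR libraries, against 14.8, 60.8 and 1.52 CPM in control TFR libraries, where the 3 control libraries held 153, 558 and 8 reads and 1 of them lay above all treated libraries. The TFR log2 fold change was 0.94 ± 0.72 (adjusted p = 0.36), and 2.57 (adjusted p = 0.023) without control TFR 2, the high library.

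Cxcr6, the receptor for CXCL16 on tissue-resident T cells, was read at 24.4, 23.3 and 25.2 CPM in treated Treg libraries, against 68.5, 66.6 and 69.7 CPM in control Treg libraries. All treated Treg libraries were below the control ones, at a log2 fold change of -1.49 ± 0.42 (adjusted p = 0.033). This call was lost when any 1 Treg library was left out (adjusted p from 0.088 to 0.12), and without the kidney-transcript libraries (adjusted p = 0.15), with little change in the value. In the fit to the Treg libraries alone it was -1.52 (adjusted p = 1.6e-07). Tconv cells had 8.47, 10.6 and 11.2 CPM in treated Tconv libraries, against 3.82, 6.03 and 5.45 CPM in control Tconv libraries, with treated above control. Their log2 fold change was 0.98 ± 0.43 (adjusted p = 0.15), and 0.82 (adjusted p = 0.026) in the fit to the Tconv libraries alone. Follicular libraries overlapped, at 13.9, 11.5 and 11.8 CPM in treated TFH libraries, against 6.08, 16.2 and 29.6 CPM in control TFH libraries. In TFR they were at 12.7, 13.7 and 15.2 CPM in treated TFR libraries, against 23.4, 14.6 and 5.31 CPM in control TFR libraries. The treated follicular libraries were close to each other and the control ones were spread widely, with log2 fold changes of -0.50 ± 0.43 in TFH (adjusted p = 0.41) and -0.07 ± 0.43 in TFR (adjusted p = 0.92).

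Ccr8, the CCL1 receptor of tissue Treg cells, was read at 5.24, 5.55 and 3.58 CPM in treated TFH libraries, against 9.39, 16.6 and 8.31 CPM in control TFH libraries. Treated TFH libraries were all lower, at a log2 fold change of -1.22 ± 0.33 (adjusted p = 0.014). The value was -0.88 (adjusted p = 0.065) without control TFH 2 and -1.04 (adjusted p = 0.066) without treated TFH 3. It was -1.26 (adjusted p = 0.38) in the fit to the TFH libraries alone. This TFH call was lost in 5 of 13 alternatives. Treg cells had 30.5, 31.2 and 25.6 CPM in treated Treg libraries, against 45.1, 42.8 and 43.8 CPM in control Treg libraries, all treated below all control. That log2 fold change of -0.59 ± 0.32 missed the threshold (adjusted p = 0.35), and in the fit to the Treg libraries alone it was -0.63 (adjusted p = 3.9e-04). TFR cells, with the highest levels, had 52.8, 60.4 and 59.6 CPM in treated TFR libraries, against 44.8, 58.9 and 104 CPM in control TFR libraries, which overlap. Tconv cells had 1.18, 0.860 and 1.06 CPM in treated Tconv libraries, against 0.954, 2.46 and 1.27 CPM in control Tconv libraries, near the bottom of the scale in both groups. The log2 fold change was -0.26 ± 0.32 in TFR (adjusted p = 0.57) and -0.59 ± 0.35 in Tconv (adjusted p = 0.32).

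Ccr6, the CCL20 receptor of mucosal T cells and B cells, passed the test in none of the 4 subsets in the fit to all libraries. In Treg cells it was at 25.4, 25.95 and 25.0 CPM in treated Treg libraries, against 11.3, 8.75 and 9.47 CPM in control Treg libraries. Treated Treg libraries were all higher, at a log2 fold change of 1.37 ± 0.75 (adjusted p = 0.36), and the fit to the Treg libraries alone gave 1.34 (adjusted p = 1.8e-05). TFR cells had 16.9, 17.1 and 16.2 CPM in treated TFR libraries, against 20.3, 25.5 and 18.8 CPM in control TFR libraries, all treated below all control. Their log2 fold change was -0.36 ± 0.75 (adjusted p = 0.75). TFH cells had 3.74, 5.36 and 2.94 CPM in treated TFH libraries, against 0, 8.50 and 4.97 CPM in control TFH libraries, and the first control TFH library held 0 reads, where 3 reads would be 0.522 CPM. Control TFH libraries spanned the treated ones, at a log2 fold change of -0.12 ± 0.77 (adjusted p = 0.93). Tconv cells had 0.781, 0.445 and 0.501 CPM in treated Tconv libraries, against 0.318, 0.0357 and 0.507 CPM in control Tconv libraries, which overlap, at a log2 fold change of 0.99 ± 0.83 (adjusted p = 0.55).

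The next question was which receptors set the subsets apart, and whether this held in both kinds of mice. Treg cells had more Ccr6, Ccr8, Cxcr3, Ccr2 and Cxcr5 RNA than Tconv cells and less Ccr7 RNA in both kinds of mice. In treated mice 5 of the 9 were higher and 1 lower in Treg than in Tconv, against 6.37% and 5.54% of all genes. In control mice 8 were higher and 1 lower, against 5.9% and 3.4%. Treated and control subset comparisons share no libraries with each other, and each shares its libraries with the treatment comparisons above. Ccr6 was higher by 5.45 ± 0.77 on the log2 scale in treated (adjusted p = 1.7e-04) and 5.07 ± 0.81 in control mice (adjusted p = 5.6e-04), where the 3 control Tconv libraries held 8, 1 and 16 reads. Ccr8 was higher by 4.81 ± 0.34 in treated (adjusted p = 6.5e-09) and 4.81 ± 0.33 in control mice (adjusted p = 6.5e-09). Cxcr3 was higher by 2.15 ± 0.12 in treated (adjusted p = 5.4e-11) and 4.55 ± 0.12 in control mice (adjusted p = 7.7e-16). Ccr2, the CCL2 receptor, gave 2.15 ± 0.52 in treated (adjusted p = 0.0089) and 3.64 ± 0.53 in control mice (adjusted p = 1.4e-04). Ccr7 was lower in Treg, by a log2 fold change of -2.56 ± 0.10 in treated (adjusted p = 3.9e-13) and -0.68 ± 0.10 in control mice (adjusted p = 8.2e-05).

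Ccr4, Cxcr6 and Cxcr4 passed this Treg against Tconv test in control mice only, which by itself does not show that the mice differ. The gap in treated minus that in control mice is the same contrast as the Treg against Tconv treatment test below. That contrast passed for Cxcr4 (-1.21 ± 0.16, adjusted p = 1.0e-04) and Cxcr6 (-2.47 ± 0.60, adjusted p = 0.032). The Cxcr6 call was lost in 13 of 19 alternatives. Ccr4 did not pass (-1.16 ± 1.035, adjusted p = 0.73). Ccr4 had a log2 fold change of 2.25 ± 0.72 in treated (adjusted p = 0.055) and 3.41 ± 0.75 in control mice (adjusted p = 0.007). Cxcr6 had 1.27 ± 0.42 in treated (adjusted p = 0.06) and 3.74 ± 0.43 in control mice (adjusted p = 6.8e-06). Cxcr4 had -0.10 ± 0.11 in treated (adjusted p = 0.72) and 1.11 ± 0.11 in control mice (adjusted p = 4.5e-07). The fit to the treated Tconv and Treg libraries alone called Ccr4 at 2.28 (adjusted p = 1.9e-11) and Cxcr6 at 1.31 (adjusted p = 3.3e-07). Cxcr5 was also higher in Treg than in Tconv although both gates were CXCR5-negative, by 1.39 ± 0.23 in treated (adjusted p = 1.6e-04) and 3.16 ± 0.25 in control mice (adjusted p = 1.4e-08). Without the kidney-transcript libraries, which hold 2 of the 3 control Tconv libraries, the control calls of Ccr4 (adjusted p = 0.24) and Ccr6 (adjusted p = 0.098) were lost, and Cxcr5 was at 4.30.

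Between the 2 follicular subsets, Ccr8 was higher in TFR than in TFH by a log2 fold change of 3.59 ± 0.32 in treated (adjusted p = 5.7e-07) and 2.63 ± 0.33 in control mice (adjusted p = 4.9e-05, and 0.054 by limma-voom). Cxcr5 was lower in TFR, by -0.94 ± 0.22 in treated (adjusted p = 0.0083) and -1.16 ± 0.23 in control mice (adjusted p = 0.0024). Ccr7 was higher in treated TFR than in treated TFH by 0.54 ± 0.10 (adjusted p = 0.0015), and it was at -0.06 ± 0.11 in control mice (adjusted p = 0.85). In treated mice 2 receptors were thus higher and 1 lower in TFR than in TFH, against 4.61% and 4.96% of all genes, and in control mice 1 was higher and 1 lower, against 7.82% and 8%. Ccr6 levels did not overlap in either kind of mouse, at 2.06 ± 0.75 in treated (adjusted p = 0.12) and 2.31 ± 0.77 in control mice (adjusted p = 0.057). Without control TFH 2, the library of 2537901 counts, Ccr6 was at 3.03 (adjusted p = 0.026), Ccr2 at 2.16 (adjusted p = 0.0051) and Cxcr3 at 0.42 (adjusted p = 0.022) in control mice. The fit to the control TFR and TFH libraries alone lost Cxcr5 (-1.14, adjusted p = 0.12), as did limma-voom (adjusted p = 0.28).

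**Figure D4:**
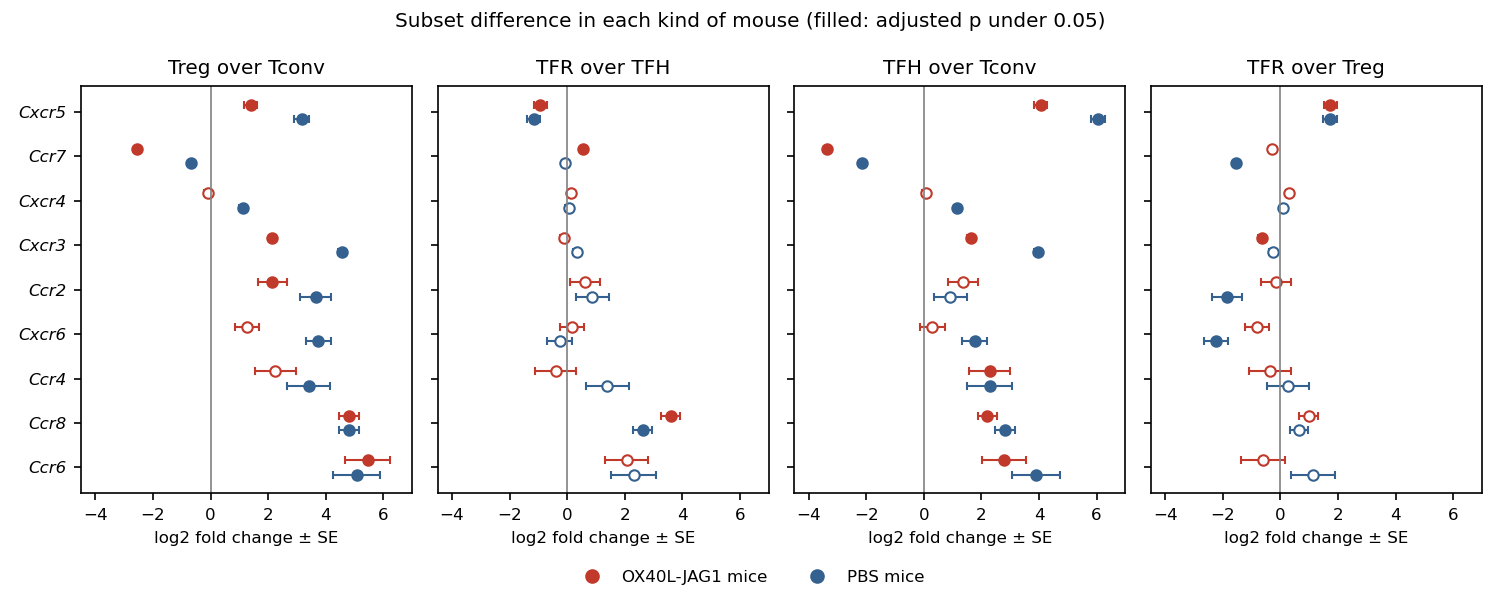
Log2 fold change between subsets (x axis, error bars 1 SE of the fit) for Treg over Tconv, TFR over TFH, TFH over Tconv and TFR over Treg, in treated (red) and control (blue) mice; filled points passed the adjusted p threshold of 0.05. Ccr7 is left of 0 for Treg and TFH over Tconv in both kinds of mice, and Ccr8 is right of 0 for TFR over TFH in both.

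TFH cells set against Tconv cells had more Cxcr3 and Ccr8 and less Ccr7. In treated mice 5 receptors were higher and 1 lower in TFH, against 10.3% and 7.77% of all genes, and in control mice 7 were higher and 1 lower, against 9.89% and 15.1%. Ccr7 was lower by a log2 fold change of -3.37 ± 0.10 in treated (adjusted p = 9.0e-15) and -2.16 ± 0.11 in control mice (adjusted p = 2.3e-12). Cxcr3 was higher by 1.62 ± 0.12 in treated (adjusted p = 2.2e-09) and 3.96 ± 0.13 in control mice (adjusted p = 4.0e-15). Ccr8 was higher by 2.21 ± 0.34 in treated (adjusted p = 7.2e-05) and 2.83 ± 0.34 in control mice (adjusted p = 4.7e-06). Cxcr5, whose protein set these gates apart, is counted among the higher receptors, and without it 4 were higher in treated and 6 in control mice. As a check of the sort, it was higher in TFH by 4.07 ± 0.23 in treated and 6.05 ± 0.25 in control mice. Ccr6 gave 2.79 ± 0.78 in treated (adjusted p = 0.02) and 3.90 ± 0.83 in control mice (adjusted p = 0.0029), and Ccr4 gave 2.29 ± 0.72 in treated (adjusted p = 0.038) and 2.28 ± 0.78 in control mice (adjusted p = 0.039). Control TFH libraries overlapped control Tconv libraries for both genes, and each had 1 control TFH library with 0 reads. Cxcr4 and Cxcr6 were called in control mice, at 1.15 ± 0.12 (adjusted p = 1.6e-07) and 1.77 ± 0.43 (adjusted p = 0.0059), where the treated values were 0.07 ± 0.11 and 0.30 ± 0.43. Without control TFH 3, Cxcr6 was at 1.09 (adjusted p = 0.069) and Ccr4 at 1.31 (adjusted p = 0.26). Over 13 alternatives, the Cxcr6 call in control mice was lost in 4 and the Ccr8 call in 1. For Ccr6 the call in control mice was lost in 2 of 12. The Ccr4 call was also lost without any 1 control Tconv library or control TFH 1 (adjusted p from 0.054 to 0.26 over these single libraries and control TFH 3), by limma-voom (adjusted p = 0.57), in the fit to these libraries alone (adjusted p = 0.47) and without the kidney-transcript libraries (adjusted p = 0.28). It was lost in treated mice without any 1 of the 6 libraries (adjusted p from 0.059 to 0.13). In treated mice the Ccr6 call was lost without treated TFH 2 or any 1 Tconv library (adjusted p from 0.051 to 0.096).

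Between the 2 regulatory subsets, Cxcr5 was the only receptor that passed the test in both kinds of mice. In treated mice 1 was higher and 1 lower in TFR than in Treg, against 1.78% and 2.83% of all genes, and in control mice 1 was higher and 3 lower, against 2.28% and 7.46%. The 1 higher receptor in each was Cxcr5, whose protein set the 2 gates apart and which was higher in TFR by a log2 fold change of 1.74 ± 0.23 in treated and 1.73 ± 0.23 in control mice. Cxcr3 was lower in TFR in treated mice by -0.65 ± 0.12 (adjusted p = 0.0018, and 0.082 without the kidney-transcript libraries), and the control value was -0.26 ± 0.12 (adjusted p = 0.19). Ccr7, Cxcr6 and Ccr2 were lower in TFR in control mice. Ccr7 had a log2 fold change of -0.28 ± 0.10 in treated (adjusted p = 0.19) and -1.53 ± 0.10 in control mice (adjusted p = 1.9e-08). Cxcr6 had -0.81 ± 0.42 in treated (adjusted p = 0.49) and -2.23 ± 0.43 in control mice (adjusted p = 0.0028). Ccr2 had -0.16 ± 0.52 in treated (adjusted p = 0.98) and -1.85 ± 0.53 in control mice (adjusted p = 0.035), and that call was lost without control TFR 2 or 3 or any 1 control Treg library (adjusted p from 0.072 to 0.11). The fit to the treated TFR and Treg libraries alone called all 9 receptors, among them Ccr8, higher in TFR by 0.94 (adjusted p = 8.5e-05).

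Whether the treated-over-control difference, here called the treatment effect, varied between subsets was tested directly. Of the 9 receptors, 5 differed between Treg and Tconv, against 2.68% of all genes, and all 5 effects were lower in Treg. These were Cxcr5, Cxcr3, Cxcr4, Cxcr6 and Ccr7. The Cxcr6 call (adjusted p = 0.032) was lost in 13 of 19 alternatives, among them leaving out any 1 Tconv or Treg library except control Tconv 3 (adjusted p from 0.054 to 0.11). Between TFH and Tconv 4 differed (Cxcr5, Cxcr3, Cxcr4 and Ccr7), against 19.6% of all genes, each lower in TFH. By limma-voom the Cxcr5 difference from Tconv in TFH was lost (adjusted p = 0.075). Both differences share the Tconv libraries, control Tconv 1 and 2 with kidney transcripts among them. Between TFR and TFH 1 differed, against 7.05% of all genes, and between TFR and Treg 1 differed, against 7.49%. That receptor was Ccr7 in both, with treatment effects of -0.79 ± 0.11 in TFR, -1.38 ± 0.11 in TFH and -2.05 ± 0.10 in Treg. The fall of Ccr7 was thus smaller in TFR than in TFH by 0.59 ± 0.15 on the log2 scale (adjusted p = 0.02) and smaller than in Treg by 1.26 ± 0.15 (adjusted p = 3.5e-05). The fit to the TFR and TFH libraries alone lost the TFR against TFH difference at 0.58 (adjusted p = 0.16). This difference was also lost without treated TFH 2 (adjusted p = 0.056) or treated TFR 3 (adjusted p = 0.059), and by limma-voom (adjusted p = 0.64). For Ccr2, called in Tconv, TFH and TFR but not in Treg, the effect in TFR minus that in Treg was 1.69 ± 0.74 (adjusted p = 0.19) and that in Treg minus Tconv -1.50 ± 0.74 (adjusted p = 0.31), so a difference between subsets was not shown.

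Other receptors, ligands and signalling genes of the pathway were taken from lists chosen with earlier results of these data known. Of 13 other chemokine receptors, 9 had enough reads. Between treated and control libraries 1 rose and 0 fell in Tconv, 1 rose and 0 fell in Treg, 3 rose and 1 fell in TFH, and 1 rose and 0 fell in TFR. For comparison, 6.89% of all genes rose in Tconv, 5.17% in Treg, 16.5% in TFH and 15.6% in TFR, and 3.05% fell in Tconv, 3.56% in Treg, 5.86% in TFH and 6.39% in TFR. Falls at an unadjusted p under 0.05 numbered 1, 0 and 1 in Tconv, Treg and TFR, and by DESeq2 0, 0 and 0. Ccrl2, an atypical receptor that presents chemerin, rose in all 4 subsets, by 1.76 ± 0.34 in Tconv, 1.43 ± 0.34 in Treg, 1.47 ± 0.34 in TFH and 1.52 ± 0.34 in TFR on the log2 scale. Ccr9, the receptor for the gut and thymus chemokine CCL25, averaged 4.59 ± 1.12 CPM in treated and 0.159 ± 0.275 CPM in control TFH libraries (SD, n = 3 each) and rose, with a log2 fold change of 4.30 ± 1.15 (adjusted p = 0.011). At low levels, Cx3cr1, the fractalkine receptor, averaged 1.72 ± 0.713 CPM in treated and 0.0227 ± 0.0393 CPM in control TFH libraries, a rise that passed the test (adjusted p = 0.0094). Xcr1, a receptor of cross-presenting dendritic cells, averaged 0.104 ± 0.113 CPM in treated and 3.93 ± 5.67 CPM in control TFH libraries and fell (adjusted p = 0.0086), although the groups overlapped. With genes at 0 in a group set to their bound, the median log2 fold change of the list was 0.50 in Tconv, 0.13 in Treg, 1.47 in TFH and 0.54 in TFR, beside fitted medians of 0.50 in Tconv, 0.13 in Treg, 4.30 in TFH and 1.52 in TFR.

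Of 16 ligand genes of the 9 receptors, 9 had enough reads. In treated libraries 1 rose in Tconv, 2 in Treg, 2 in TFH and 3 in TFR, and 1 fell, in TFH. The shares of all genes that rose were 6.89%, 5.17%, 16.5% and 15.6% in the same order of subsets, and 5.86% fell in TFH. At an unadjusted p under 0.05, 2, 1 and 2 fell in Tconv, Treg and TFR, and by DESeq2 1, 0 and 0. Cxcl10, a ligand of CXCR3, rose in all 4 subsets. It averaged 341 ± 13.1 CPM in treated and 86.8 ± 14.3 CPM in control TFR libraries (SD, n = 3 each), a log2 fold change of 1.97 ± 0.17 (adjusted p = 3.0e-08). In TFH it averaged 307 ± 28.6 CPM in treated and 50.9 ± 16.6 CPM in control libraries, with 2.59 ± 0.17 (adjusted p = 7.3e-10). The log2 fold change of Cxcl10 was 1.98 ± 0.16 (adjusted p = 4.1e-08) in Treg and 1.14 ± 0.17 (adjusted p = 5.1e-05) in Tconv. Ccl1, the ligand of CCR8, averaged 5.43 ± 0.812 CPM in treated and 0.134 ± 0.148 CPM in control Treg libraries, with 5.28 ± 1.17 (adjusted p = 0.015). It averaged 4.24 ± 0.334 CPM in treated TFR libraries and had 0 reads in control TFR libraries, at least 35.03-fold higher against 3 reads over the 3 control libraries. Cxcl11, another CXCR3 ligand, averaged 2.96 ± 0.220 CPM in treated and 0.0323 ± 0.0559 CPM in control TFR libraries, a rise that passed the test (adjusted p = 0.0043). Its rise in TFH went with 0.617 ± 0.499 CPM in treated and 0 reads in control libraries. Cxcl13, the ligand of CXCR5, averaged 0.0385 ± 0.0666 CPM in treated and 2.70 ± 3.22 CPM in control TFH libraries and fell (adjusted p = 0.044), although the groups overlapped. With genes at 0 in a group at their bound, the list's median log2 fold change was -0.31 in Tconv, 2.67 in Treg, 1.48 in TFH and 0.44 in TFR, and the fitted medians were -0.31 in Tconv, 2.67 in Treg, 4.08 in TFH and 0.44 in TFR.

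All 21 genes for signalling below chemokine receptors had enough reads. In treated libraries 11 rose and 2 fell in Tconv, 8 rose and 0 fell in Treg, 10 rose and 0 fell in TFH, and 9 rose and 0 fell in TFR. Of all genes 6.89%, 5.17%, 16.5% and 15.6% rose and 3.05%, 3.56%, 5.86% and 6.39% fell in that order. In Treg, TFH and TFR, 2, 0 and 0 were lower at an unadjusted p under 0.05, and 1, 0 and 0 by DESeq2. The Tconv counts use control Tconv 1 and 2, which held kidney transcripts. Gnai1 averaged 2.90 ± 2.52 CPM in control Tconv libraries and had 0 reads in treated ones. Grk5 averaged 25.2 ± 13.6 CPM in control and 5.94 ± 0.42 CPM in treated Tconv libraries (SD). The part of kidney transcripts in the Tconv falls was not tested. Rac2, the haematopoietic Rac GTPase, averaged 749 ± 25.2 CPM in treated and 215 ± 35.95 CPM in control Tconv libraries (SD, n = 3 each). Its log2 fold change was 1.80 ± 0.10 (adjusted p = 1.0e-10) in Tconv, 0.96 ± 0.10 (adjusted p = 1.2e-06) in Treg, 1.56 ± 0.10 (adjusted p = 7.8e-10) in TFH and 1.33 ± 0.10 (adjusted p = 8.8e-09) in TFR. Dock2, the exchange factor that activates Rac in lymphocytes, rose by 1.16 ± 0.12 in Tconv, 1.34 ± 0.12 in Treg, 1.36 ± 0.13 in TFH and 0.69 ± 0.12 in TFR. Arrb2, a beta-arrestin that binds activated receptors, rose by 1.01 ± 0.11 in Tconv, 0.86 ± 0.11 in Treg, 0.94 ± 0.11 in TFH and 1.05 ± 0.11 in TFR. Gng2, a G protein subunit, rose by 1.72 ± 0.18 in Tconv. Rasgrp2, which activates Rap1 and through it integrins, rose by 2.21 ± 0.24 in TFH, and Rap1a itself rose by 0.67 ± 0.10 in Treg. In TFR, Gnai2, an inhibitory G protein subunit, rose by 0.76 ± 0.08 and Grk2, a kinase that desensitises receptors, by 0.58 ± 0.09. The median log2 fold change of the list was 0.63 in Tconv, 0.45 in Treg, 0.50 in TFH and 0.28 in TFR, beside the medians over all genes given above.

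Genes of like pattern were sought among 9672 protein-coding genes of at least 5 CPM, by Pearson's correlation of the medians of log2 CPM over the 8 groups. Over so few points many genes come close to any pattern, and all points share the subset and treatment differences, so these values are a description. For Cxcr5 they were Serpinf1 (0.982), Art2b (0.981) and Capns1 (0.980). Ccr7 was closest to Cd53 (0.984), Ifngr2 (0.971) and Prdx6 (0.970), and Cxcr4 to Pgap3 (0.969), Prickle1 (0.954) and Bex3 (0.947). For Cxcr3 the genes were Ttpal (0.981), Virma (0.978) and Myo3b (0.978), for Cxcr6 Klf8 (0.967), Pbxip1 (0.897) and Slc29a3 (0.896), and for Ccr2 Xpo5 (0.986), Lbh (0.959) and Pus10 (0.948). For Ccr4 they were Map3k8 (0.994), Trpv2 (0.978) and Myo1f (0.977), for Ccr8 Hopx (0.984), Hsf2 (0.979) and Socs2 (0.978), and for Ccr6 Irf5 (0.992), Neu3 (0.989) and Swap70 (0.987). Between the receptors themselves the correlation of Cxcr5 was -0.89 with Ccr7, 0.74 with Cxcr3 and 0.72 with Ccr4 over the 8 groups.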

How the data were processed

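Total RNA of 24 sorted libraries was sequenced, 3 in each of 8 groups, and groups were taken from the sample labels. The authors deposited raw read counts per gene, 39056 genes with no normalization. The submitters' processing notes name the aligner STAR, the counter featureCounts and the build mm10. Their versions, annotation release and strand setting were not given in the sources used here. Symbols, exon lengths and coordinates came from GENCODE M21 by gene ID without version, which matched 38872 IDs and left 184 unmatched. Promoter sequences came from RefSeq (GRCm38.p6).

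Counts were fitted with edgeR 4.0.16 in R 4.3.3. A filter on low counts (filterByExpr) left 18789 genes. After TMM scaling, a single model of 8 group means with no covariate took in all 24. Tests were two-sided quasi-likelihood F tests, with p-values adjusted by Benjamini-Hochberg over all tested genes and a threshold of 0.05. CPM are TMM-scaled. CPM per kb divides by exon length. SE of log2 fold changes came from the same model. No libraries were merged, since replicates differed beyond sampling (chi-square per degree of freedom at least 4.70). The pairs were uneven. Libraries 1 and 2 were closest in control Tconv (7.07, against 104 and 114), control Treg (15.7, against 295 and 317), treated Treg (4.70, against 35.8 and 39.4) and treated TFH (31.7, against 247 and 291). In treated Tconv and TFR, libraries 2 and 3 were closest (6.21 and 8.19). Control TFR and TFH pairs were alike (32.2 to 39.96). Whether close libraries share a source was not tested. At the depth of control TFH 2 (2537901 counts), 3 counts are 1.16 CPM. Such floors cover counting error only.

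All 9 receptors are named throughout. Of each other list, the text names up to 4 called genes with the smallest p per treatment comparison, and for each receptor the 3 genes closest in pattern. From the lists of other receptors, B cell markers and podocyte genes, 1 gene each is not reported here and was left out of all sums and counts. The receptors, the lists and the rule were chosen with earlier results of these data known. The test was tried on simulated counts with less spread between libraries than these data. The common biological coefficient of variation, a measure of that spread, was 0.617 here. The trial thus does not show how the test does at this spread. Alternatives were DESeq2 1.42.0, limma 3.58.1 (voom with quality weights per group), relative log expression factors, no filter, only the libraries compared, the replicate number as a block and leaving out each library. Leaving out the kidney-transcript libraries (podocyte sum over 10 CPM and at least 10 times the lowest of the group) was added after the data were seen.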

Additional observations from a re-analysis of the deposited data

Results flagged for a closer look

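For 11 results the treated-over-control difference of a receptor, in log2 units, differed between subsets when the difference itself was tested (edgeR quasi-likelihood, Benjamini-Hochberg over all genes, 3 libraries in each group).

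Ccr7 met this in all 4 tests. Its effect in TFR minus that in TFH was 0.59 ± 0.15 (SE, adjusted p = 0.02), and in TFR minus Treg it was 1.26 ± 0.15 (SE, adjusted p = 3.5e-05). In Treg minus Tconv it was -1.88 ± 0.15 (SE, adjusted p = 1.9e-07), and in TFH minus Tconv -1.21 ± 0.15 (SE, adjusted p = 2.4e-05). In all 9 treated libraries of Treg, TFH and TFR, Ccr7 was below every control library of the same subset, while the Tconv groups overlapped.

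Cxcr3 differed by -2.41 ± 0.17 (SE, adjusted p = 5.9e-08) in Treg minus Tconv and by -2.34 ± 0.17 (SE, adjusted p = 4.7e-08) in TFH minus Tconv. Its effects were 0.19 ± 0.12 in Treg and 2.60 ± 0.12 in Tconv. Cxcr5 differed by -1.77 ± 0.34 (SE, adjusted p = 0.0051) in Treg minus Tconv and by -1.98 ± 0.34 (SE, adjusted p = 8.3e-04) in TFH minus Tconv, and it rose in each of these subsets.

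Cxcr4 differed by -1.21 ± 0.16 (SE, adjusted p = 1.0e-04) in Treg minus Tconv and by -1.09 ± 0.16 (SE, adjusted p = 2.1e-04) in TFH minus Tconv, with opposite signs of its effects (-0.77 ± 0.11 in Treg and 0.44 ± 0.11 in Tconv). Cxcr6 differed by -2.47 ± 0.60 (SE, adjusted p = 0.032) in Treg minus Tconv, with effects of -1.49 ± 0.42 in Treg and 0.98 ± 0.43 in Tconv. All differences from Tconv use control Tconv 1 and 2, which held kidney transcripts. Without the kidney-transcript libraries, which leaves 1 control Tconv library assumed to vary like the other groups, the difference for Cxcr6 missed the threshold (adjusted p = 0.71) and the other 8 from Tconv passed it. The Cxcr6 difference was lost in 13 of 19 alternatives, and that of Cxcr5 in TFH minus Tconv in 1, limma-voom (adjusted p = 0.075). That of Ccr7 in TFR minus TFH was lost in 4 of 19, with adjusted p up to 0.64 (limma-voom).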

How the results depend on the processing

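The 9 receptors in 16 comparisons gave 144 results, of which 70 passed the threshold, and none changed sign while called under any alternative. DESeq2 kept the side of the threshold for 130 of 144, relative log expression factors for 143, no filter for 141, voom for 115, only the libraries compared for 111 of 143 (8 lost, 24 gained), leaving out kidney-transcript libraries for 130 of 144 (14 lost) and leaving out single libraries for 1017 of 1080. Relative log expression factors shifted the median of all genes by over 0.1 only for the effect in Treg minus Tconv (0.12).

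Counts of receptors called moved by over 1.5 times in these cases. For TFR against TFH in control mice (2 in the fit to all libraries) DESeq2 gave 4, voom 0 and only the libraries compared 1. For TFH against Tconv in control mice (8), voom gave 5, only the libraries compared 4 and leaving out kidney-transcript libraries 5. For TFR against Treg in treated mice (2), DESeq2 gave 5, voom 8, only the libraries compared 9 and without kidney-transcript libraries 1. For TFR against TFH in treated mice (3), voom gave 5 and only the libraries compared 6. For treated against control Treg (4), voom gave 9 and only the libraries compared 8. In TFH (6), only the libraries compared gave 3, and in Tconv (5), leaving out kidney-transcript libraries gave 2. For the effect in TFR minus TFH (1), DESeq2 gave 2, voom 0 and only the libraries compared 0. For that in TFR minus Treg (1), DESeq2 gave 2, voom 3 and only the libraries compared 4. The cause of these moves was not tested.

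Leaving out single libraries gave 3 to 4 calls in treated against control Tconv (3 without treated Tconv 3, control Tconv 1 or control Tconv 2), 2 to 5 in control TFR against TFH (5 without control TFH 2), 0 to 2 for the effect in TFR minus TFH (0 without treated TFH 2 or treated TFR 3, 2 without control TFH 2) and 1 to 2 for that in TFR minus Treg (2 without control TFR 1). The counts of 0 stand beside 4 at an unadjusted p under 0.05 for control TFR against TFH by voom, and 0 by voom, 2 by edgeR on only the libraries compared, 3 without treated TFH 2 and 2 without treated TFR 3 for the effect in TFR minus TFH.

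The labels do not say whether libraries with the same replicate number are linked. In 0 of 12 pairs of groups did every same-numbered pair correlate above 0.1 (range -0.786 to 0.675), and in 0 did every library lie closest to its own number. For replicates 1, 2 and 3 the values were -0.751, 0.656 and -0.777 in treated TFR against TFH. In treated TFR against Treg they were -0.770, 0.675 and -0.786. All other pairs lay between -0.060 and 0.068. Links between libraries of different numbers were not tested, and the replicate block cannot take them up. With the replicate block 5, 4, 6 and 4 receptors passed in the treated against control comparisons of Tconv, Treg, TFH and TFR, and no count moved by over 1.5 times. The block lost 4 of the 144 results: Ccr4 in TFH against Tconv of treated (adjusted p = 0.056) and control mice (adjusted p = 0.052), Ccr2 in control TFR against Treg (adjusted p = 0.053) and the Cxcr6 effect in Treg minus Tconv (adjusted p = 0.052). The limits are depth (3 counts are 1.16 CPM in control TFH 2), the 3 libraries per group, and the pooling of spread across groups.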
